A study of Mus musculus with 12 samples.

Results

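Round spermatids were compared with spermatocytes of the same control mice, on 6 of the 12 arrays in the series. The 3 arrays of each cell type were chosen by their sample labels alone, and every probe with a detection p under 0.05 on at least 1 of the 6 arrays was tested, which left 25511 of 45281 probes and 13441 named genes. Replicates 1, 2 and 3 are 3 mice, each of which gave 1 spermatocyte and 1 spermatid array. These controls were not wild type. All were Baz1a+/- adults on a mixed C57BL/6J and FVB/NJ background, heterozygous for an allele that lacks exon 6 of the chromatin remodeling subunit gene Baz1a. The allele goes back to 1 targeted embryonic stem cell clone and was made by crossing floxed mice to a Stra8-Cre line, in which Cre is driven by a germ cell promoter. No probe in the annotation used is named Baz1a, so its own level was not read. Cells were freed with collagenase, trypsin and DNase I and sorted on the red and blue fluorescence of the DNA dye Hoechst. Spermatocytes were enriched for the pachytene and diplotene stages of meiotic prophase. The 6 other arrays hold the same cell types of 3 Baz1a-/- mice, of which 1 spermatocyte array was marked as censored in its label and entered no test.

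A pachytene spermatocyte holds replicated, paired chromosomes, repairs programmed double-strand breaks on them and keeps its sex chromosomes transcriptionally silent in a compartment called the sex body. Both meiotic divisions follow, and the haploid round spermatid then builds an acrosome, the secretory vesicle of the sperm head, starts a flagellum, and stores messenger RNAs for a later period in which histones give way to transition proteins and protamines and transcription ends. Each array reads the abundance of these RNAs, not their synthesis. In sorted populations, fewer cells of a type and less RNA per cell cannot be told apart.

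Depth was similar on all 6 arrays, with 37.6 to 40.4% of probes detected and a median signal of 101.6 to 114.1. The median SD between the 3 arrays of a group was 0.22 log2 units in spermatids and 0.23 in spermatocytes. The labels were set against marker lists. All 17 tested round spermatid markers were higher in spermatids, by a median of 3.70 log2, and none was lower at an unadjusted p under 0.05 in limma. Their summed linear signal was 6770 to 22800 in spermatocytes and 85200 to 99400 in spermatids. Spermatid markers were therefore read in the spermatocyte arrays too, and unevenly: their mean log2 signal was 8.94, 7.14 and 9.07 in spermatocyte replicates 1, 2 and 3, against 11.96, 12.21 and 12.07 in spermatids. Replicate 2 had the lowest level of these markers. Of 12 tested spermatocyte markers 2 were lower in spermatids and 1 was higher, with a median of -0.26, and their summed signal was 37300 to 41800 in spermatocytes and 28100 to 31700 in spermatids. By the study's own microscopic counts of the sorted cells, spermatocyte purity was lowest in replicate 1 and highest in replicate 3. The order of the markers differed from this, as replicate 3 had their highest mean. The share of spermatid RNA in each spermatocyte array, and its part in the size of the differences, was not tested.

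Markers of other testis cells had low summed signals, although the Leydig cell gene Insl3 read up to 9.53. Among Sertoli cell markers 9 of the 11 on the array were tested and none was called, with summed signals of 316 to 867 in spermatocytes and 444 to 836 in spermatids (1 was lower and none higher at an unadjusted p under 0.05 in limma). Leydig cell markers gave 3 tested of 9 on the array, none called or past an unadjusted p of 0.05, and their sums ranged over 175 to 788 and 182 to 858. Insl3, a Leydig cell hormone, read 9.40, 6.98 and 8.37 in spermatocytes and 9.53, 6.81 and 9.04 in spermatids, so that its low value fell in the same mouse in both cell types. Of 12 tested spermatogonial markers Kit rose, a call lost without background correction, and Dnmt3b fell. Small rises were called for the macrophage marker Adgre1, at 1.79, the fibroblast marker Lum, and the endothelial markers Vwf, at 1.69, and Flt1, at 1.51. Lum was not detected on any spermatocyte array and was at least 2.26-fold higher, and its other probe was not called, at 0.91. Without background correction Adgre1, Lum, Vwf and Flt1 were at 0.57 to 0.67 and not called, and with an offset of 50 Lum, Vwf and Flt1 were not called. The summed signal was 188 to 200 and 309 to 339 for the 7 tested macrophage markers, 234 to 269 and 361 to 455 for the 7 endothelial ones, and 333 to 396 and 431 to 551 for the 9 myoid and fibroblast ones, in spermatocytes and spermatids. No red blood cell marker was detected on any of the 6 arrays, of 4 on the array. Below, "rose" means higher in spermatids and "fell" means lower in spermatids.

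Spermatids and spermatocytes differed over much of the transcriptome, in both directions, and large changes were more often rises. A probe was called when its fold was at least 2 and its Benjamini-Hochberg adjusted p in limma was under 0.05. By this rule 8170 of 25511 probes (32.0%) were called, of which 3763 (14.8%) rose and 4407 (17.3%) fell. Which direction had more calls depended on the processing. Without background correction 2272 rose and 2146 fell, when limma tested for a change beyond 2-fold 2522 rose and 2208 fell, and under median scaling 3423 rose and 5722 fell. With the brightest probe standing for its gene, 2163 genes (16.1%) rose and 2490 (18.5%) fell, and the median of all genes was -0.08 log2. Counts on the gene lists below are to be read beside these shares. An 8-fold change or more was reached by 747 of the genes that rose and by 210 of those that fell. The values of the 3 spermatid arrays lay wholly above those of the 3 spermatocyte arrays in 2155 of the risen genes, and wholly below them in 2465 of the fallen ones. Such separation is largely set by the call, which was made on the same arrays, and adds no support to it. Leaving out any 1 control array gave 7827 to 8491 called probes.

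**Figure D1:**
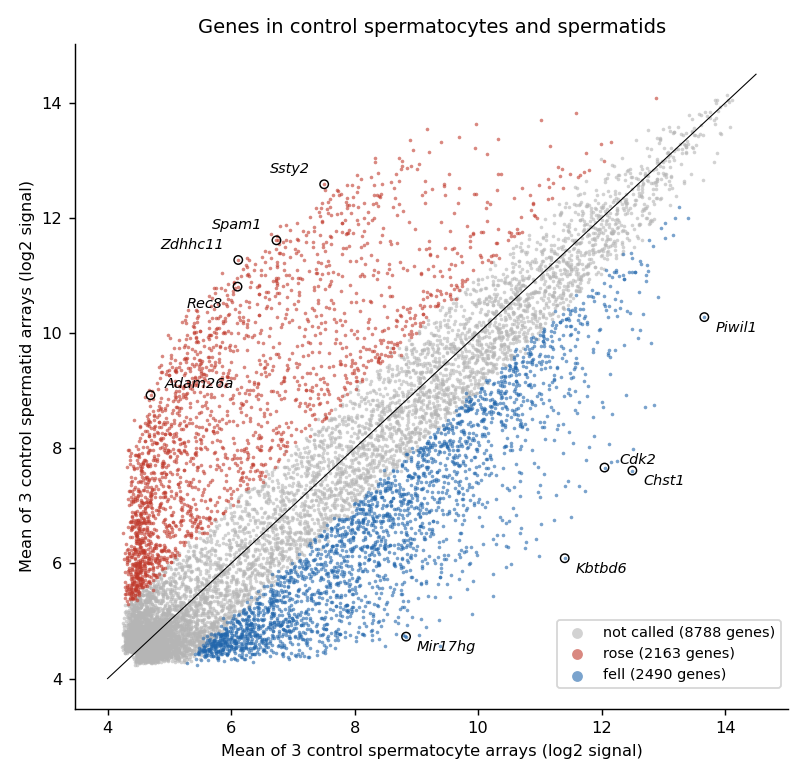
Each point is 1 of 13441 genes, placed by the mean log2 signal of the 3 control spermatocyte arrays (x) and of the 3 control spermatid arrays (y). The line marks equal levels, red genes rose and blue genes fell. The red cloud reaches farther from the line than the blue one, as 747 genes rose 8-fold or more and 210 fell by as much.

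The 12 largest rises among detected, named genes lay between 5.04 and 5.21 log2. Zdhhc11, of the DHHC family of palmitoyltransferases, read 6.25, 5.45 and 6.65 in spermatocytes and 10.86, 11.51 and 11.46 in spermatids, a rise of 5.21 (SE 0.50, adjusted p = 1.22e-06 in limma). All 3 spermatid arrays stood more than 4 log2 units above the highest spermatocyte array. Tssk4, a kinase of the testis-specific serine kinase family, went from 6.59, 5.03 and 7.14 to 10.89, 11.65 and 11.40. Zan encodes zonadhesin, an acrosomal protein that binds the egg coat. It read 5.32, 4.61 and 6.43 in spermatocytes and 10.15, 10.38 and 10.61 in spermatids. Signals of different probes do not rank RNA amounts, and the highest spermatid signal of the 12 was that of the Y-linked multicopy gene Ssty2. It read 12.33, 12.84 and 12.59, after 8.01, 5.88 and 8.63 in spermatocytes. In each of these genes spermatocyte replicate 2 was the lowest array, as it was for the spermatid markers. That the groups did not overlap was a condition of their choice. Naa80, the acetyltransferase of the actin N-terminus, rose by 5.04 on the probe named here, and its 2 tested probes both rose. The others were Pdzk1ip1, the X-linked Samt2b, BC061237, Gm2888 and 3 transcripts known by clone names, 1700020L24Rik, 4930415O20Rik and 4930449I24Rik.

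The 12 largest falls lay between -5.29 and -4.53. Kbtbd6, a substrate adaptor of a cullin 3 ubiquitin ligase, read 11.37, 11.48 and 11.35 in spermatocytes and 6.39, 5.28 and 6.60 in spermatids, a log2 difference of -5.29 (SE 0.28, adjusted p = 2.7e-08 in limma). The 3 spermatocyte arrays lay close together, whereas the spermatid arrays spread over more than 1 log2 unit. Mgll, the lipase that splits monoacylglycerols, fell from 9.80, 10.11 and 10.37 to 6.07, 4.67 and 4.75, and was detected on 1 of the 3 spermatid arrays with this probe, and fell on all 3 of its probes. Chst1, a sulfotransferase that acts on keratan sulfate chains, fell from 12.42, 12.47 and 12.60 to 8.16, 6.89 and 7.80. The microtubule-affinity kinase gene Mark2 was at -4.87 (SE 0.19), from 9.86, 10.27 and 9.83 to 5.46, 4.93 and 5.02. Ccp110 encodes a centriole cap protein that restrains cilium growth. It went from 11.99, 12.08 and 11.87 to 8.02, 7.08 and 7.30, and all 3 of its tested probes fell. Septin12, a septin of the sperm annulus, was at 10.73, 10.73 and 11.48 in spermatocytes and 6.26, 5.64 and 6.46 in spermatids. The remaining genes were Elfn2, Lypd10, Tmem185b, Gm26588, Tex261 and Fbxo3. Each gene is ranked by its most changed probe, which for some is not the brightest. Tex261 fell on 3 of its 4 probes, but the brightest was at -0.14 and not called, and Fbxo3 fell on 2 of 3, with the last at -0.82. The brightest probes of Mgll, Mark2, Lypd10 and Ccp110 were at -4.61, -3.93, -4.55 and -4.55.

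**Figure D2:**
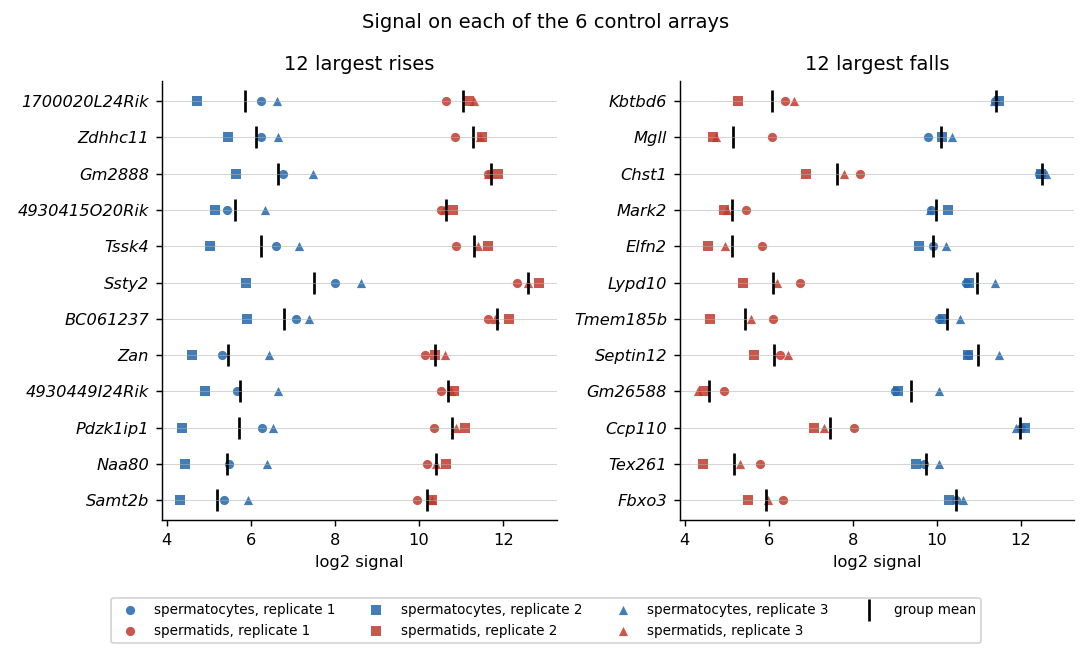
Log2 signal (x) of the 12 genes with the largest rises (left) and the 12 with the largest falls (right) on each of the 6 control arrays, with the marker shape giving the mouse and a black tick the group mean. Spermatocyte replicate 2 (blue squares) is the lowest array for every gene on the left. Groups without overlap were a condition for a gene to be chosen.

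Some transcripts were read in 1 cell type alone. Of the 13441 genes, 544 were detected on all 3 spermatid arrays and on no spermatocyte array, of which 388 rose, and 372 showed the reverse, of which 209 fell. For these genes the fold is a lower bound, the mean of the detected arrays over the lowest signal detected on each other array (or the probe's own, where higher). Adam26a, a testis member of the ADAM family of membrane metalloproteases, was not detected in spermatocytes and read 8.76, 9.12 and 8.88 in spermatids, at least 17.3-fold higher (adjusted p = 1.85e-07 in limma). Its 2 other probes did not rise, and the lowest was at -0.15. Lipf, a lipase named for the stomach, read 8.13, 8.88 and 8.79 in spermatids, at least 13.8-fold above spermatocytes. Sncaip, Gm1979, 4933436I01Rik and Etfbkmt were at least 14.3-, 12.8-, 12.1- and 10.9-fold higher, and Etfbkmt rose on 2 of 3 probes, with the last at -0.70.

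In the other direction Mir17hg, the host transcript of the miR-17 to miR-92 microRNA cluster, had the highest signal. It read 8.94, 8.66 and 8.91 in spermatocytes and was not detected on any spermatid array (4.73, 4.74 and 4.71), at least 16.3-fold lower (adjusted p = 1.17e-08 in limma). The fitted difference was -4.12 (SE 0.17). Shprh, a ubiquitin ligase of DNA damage tolerance, the SLIT receptor gene Robo1 and the cation channel gene Trpc1 were at least 7.31-, 6.89- and 6.55-fold lower in spermatids. The transcripts 4933439C10Rik and 5730455P16Rik were at least 12.8- and 6.51-fold lower. Not all probes of these genes did the same. Trpc1 fell on 1 of 3 probes, with another at 0.19, and Shprh and 5730455P16Rik fell on 1 of 2, with the other at -0.80 and -0.26. The arrays measured the host transcript, not the mature microRNAs. Their sequences (RefSeq, GRCm38.p6, chromosome 14, plus strand) are shown because the transcript carries 6 hairpins whose main products fall into 4 seed groups. Capitals mark the seed, bases 2 to 8.
mmu-miR-17-5p: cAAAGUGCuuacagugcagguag
mmu-miR-20a-5p: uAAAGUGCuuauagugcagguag
mmu-miR-18a-5p: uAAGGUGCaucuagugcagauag
mmu-miR-19a-3p: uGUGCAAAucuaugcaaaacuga
mmu-miR-19b-3p: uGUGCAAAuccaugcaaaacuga
mmu-miR-92a-3p: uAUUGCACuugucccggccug
miR-17-5p and miR-20a-5p share the seed AAAGUGC, and miR-19a-3p and miR-19b-3p share GUGCAAA, while miR-18a-5p and miR-92a-3p each have their own.

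On the sex chromosomes far more genes rose than fell. In pachytene, meiotic sex chromosome inactivation silences most X- and Y-linked genes, and part of them is transcribed again after meiosis. Of 427 X-linked genes tested, 163 (38.2%) rose and 3 (0.703%) fell, with a median of 0.40. On the 19 autosomes 11.46 to 20.99% of genes rose and at least 14.47% fell, and the autosomal median was -0.10. Only 11.5% of X-linked genes were detected on all 3 spermatocyte arrays, against 62.1% of autosomal genes. A gene near background in spermatocytes can hardly fall, and detection in spermatids alone was enough for testing. The low share of falls on X is limited by this. By probes, 204 of 565 X-linked probes rose, and 202 to 212 did so when any 1 control array was left out. Detection on each array was counted over the same tested genes. As a gene could enter by detection in spermatids alone, it adds no separate support to the rises. X-linked genes were detected at a share of 42.9, 23.7 and 34.9% in spermatocyte replicates 1, 2 and 3 and of 67.2, 58.5 and 63.7% in spermatids, whereas 71.0 to 75.2% of autosomal genes were detected on any of the 6 arrays. Genes detected in all 3 spermatid arrays and no spermatocyte array made up 14.3% of the X-linked and 3.69% of the autosomal genes. Still, 261 of the X-linked genes were not called. Of 17 Y-linked genes 12 (70.6%) rose, by a median over all 17 of 3.76, and none fell or was lower at an unadjusted p under 0.05 in limma.

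**Figure D3:**
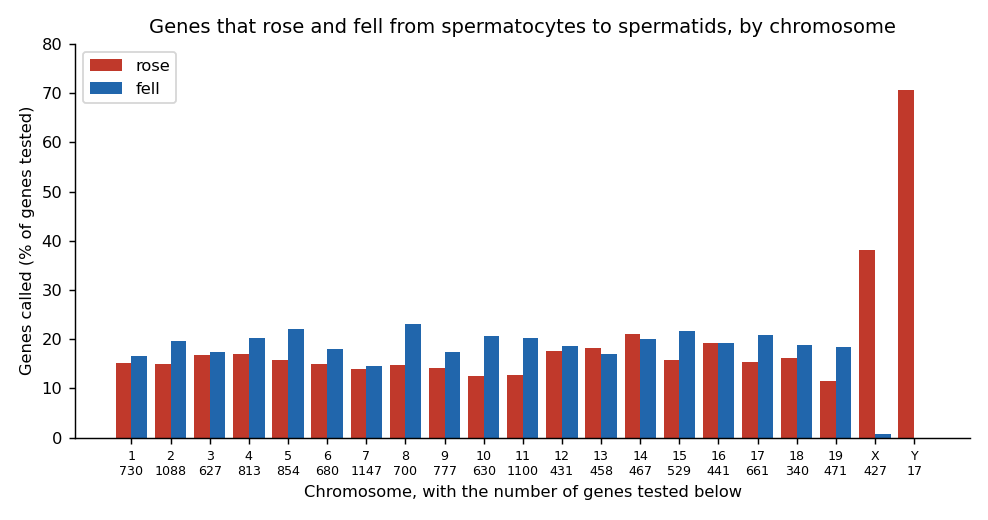
Share of the genes tested on each chromosome that rose (red) or fell (blue) from spermatocytes to spermatids in controls, in percent. On X 38.2% rose and 0.703% fell, on Y 70.6% rose, and on the autosomes 11.46 to 20.99% rose.

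Among X-linked genes the largest rises were those of Samt2b, Ssxb5, Gm5168, Akap14, Cldn34b4 and Ssxb8, at 5.04 to 4.58. Akap14, which encodes an anchoring protein of protein kinase A, read 5.66, 4.54 and 6.01 in spermatocytes and 9.91, 10.36 and 10.29 in spermatids. Ssxb5, of the Ssx family, went from 5.13, 4.45 and 5.36 to 10.07, 9.91 and 9.94. Spermatid arrays of both genes were nearly level while spermatocyte arrays spread by about 1 log2 unit or more. Members of the Samt, Ssx and Cldn34 families have close copies on X, so their probes may read more than 1 gene. The 3 X-linked genes that fell were Ndufa1, a subunit of respiratory complex I, Lage3, of the KEOPS complex for transfer RNA modification, and Fmr1, the RNA-binding protein of fragile X syndrome. Ndufa1 went from 9.95, 9.67 and 9.63 to 8.64, 8.10 and 8.22. Lage3 and Fmr1 were not detected in spermatids, and their spermatocyte levels of 5.91, 6.08 and 5.80 and of 5.52, 5.93 and 5.79 put them at least 2.18- and 1.91-fold lower. Without background correction Lage3 and Fmr1 were no longer called. On Y, Ssty2, Gm20738, Gm20867, Ssty1, Gm20747 and Gm21943 rose by 5.07 to 4.66, and Ssty1 read 6.33, 5.08 and 6.79 in spermatocytes and 10.38, 10.98 and 10.97 in spermatids. These are multicopy genes too.

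Several X-linked housekeeping genes have an autosomal retrotransposed copy that is active in male germ cells, and 19 genes of such pairs were tested. Pgk1, the X-linked phosphoglycerate kinase, read 5.59, 5.35 and 6.64 in spermatocytes and 5.92, 5.86 and 6.06 in spermatids, a difference of 0.21 (SE 0.30) that was not called. Its copy Pgk2 rose by 1.34 (SE 0.20, adjusted p = 7.68e-05 in limma), from 11.97, 11.62 and 11.66 to 12.96, 13.32 and 13.11. For the phosphoribosyl pyrophosphate synthetases the order was the other way round. Prps1 on X rose by 2.70, from 5.18, 4.66 and 4.83 to 7.74, 7.75 and 7.54. Its autosomal copy Prps1l1 was at 13.13, 13.14 and 13.02 in spermatocytes and 12.98, 13.09 and 12.93 in spermatids (-0.11, SE 0.15, adjusted p = 0.574). In the ubiquitin-like pair both rose, Ubl4a on X by 2.91 and Ubl4b by 3.56. Cstf2 rose by 1.17 on 1 of its 2 probes, with the other at 0.15. Its call was lost without spermatocyte replicate 1, at 0.999, without background correction, at 0.39, and with an offset of 50, at 0.58. Of the other members, Timm8a2, a copy of a mitochondrial import gene, was lower at -2.55, and the rest were not called. These were Rbmxl2 at 0.12, Cetn1 at 0.00, Rpl39 at 0.21 and Rpl39l at 0.40, Zfx, Gk2, G6pd2 and Cox7b2 at 0.20, 0.45, 0.95 and -0.70, and Rbmx, Cetn2 and Pdha1, each of which was detected on no array of 1 cell type and on 1 or 2 of the other. G6pd2 passed without spermatid replicate 1, at 1.22, or spermatocyte replicate 2, at 1.04.

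A chosen list of transcription regulators of the meiotic and spermatid programs had more rises than falls, which does not describe transcription factors as a class. Zinc finger genes named Zfp, given below, had more falls than rises. Of 31 tested members of the list, 14 rose and 3 fell, with a median of 0.21 against -0.08 for all genes. Rfx1, of the RFX family of factors that drive ciliary genes, read 6.18, 5.37 and 6.25 in spermatocytes and 10.25, 10.54 and 10.61 in spermatids, a rise of 4.53 (SE 0.34, adjusted p = 1.84e-07 in limma). Rfx2, its relative with a known need in spermiogenesis, was at 12.63, 13.07 and 12.96 and at 12.80, 12.50 and 12.76, so that its groups overlapped (-0.15, SE 0.18). Fhl5, a coactivator of the master regulator CREM, rose from 8.77, 6.47 and 8.66 to 12.29, 12.44 and 12.35. Crem itself rose by 1.13, but 1 of its 5 tested probes fell. Whether its probes read different isoforms was not tested. The call of Crem was lost under median scaling, at 0.98, and when limma tested for a change beyond 2-fold. Chd5, a chromatin remodeler required for histone removal, went from 7.17, 5.15 and 7.04 to 10.56, 10.70 and 10.76, and all 4 of its probes rose. Sox5 rose by 4.29 on the probe named here and by 4.55 on the strongest of its 5 probes, while 1 probe fell by 1.28. Egr4 and Tbpl1 were not detected on any spermatid array and were at least 3.04- and 2.06-fold lower. Rfx4 fell, at -1.09, although another of its probes rose by 2.06. Without background correction none of these 3 falls was called, and 12 of the list rose.

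Chromatin components moved in both directions. Of 14 tested genes of the compaction list 8 rose and 4 fell. Hils1, a linker histone of spermatids, read 9.60, 7.33 and 9.90 in spermatocytes and 13.05, 13.26 and 13.26 in spermatids, a rise of 4.19 (SE 0.51). Prm3 and the linker histone gene H1f7 rose by 3.90 and 3.64, and the transition protein genes Tnp1 and Tnp2 by 1.90 and 2.50. Prm1, for protamine 1, was already at 13.47, 11.90 and 13.27 in spermatocytes and at 13.97, 14.26 and 14.03 in spermatids, the last of which includes the highest value on the 6 arrays (14.26), where differences may be compressed. Its rise of 1.11 was 0.72 and no longer called without spermatocyte replicate 2. H3f3b, 1 of the genes for histone variant H3.3, was the largest fall of the list. Its mean was 12.85 ± 0.14 in spermatocytes and 8.76 ± 0.38 in spermatids (SD, n = 3), with no overlap and a difference of -4.16 (SE 0.20, adjusted p = 1.74e-08 in limma), while H3f3a, which encodes the same protein, was at 0.33. Macroh2a1, H2az1 and H2ax fell, with differences of -1.48, -1.30 and -1.18. Of 44 tested core histone genes of the histone clusters 16 rose and 3 fell, and H4c6 led with a rise of 4.09, from 6.06, 4.57 and 5.73 to 9.57, 9.62 and 9.72. Cluster members are near copies and their probes may cross-read. Histone modifiers gave 3 rises and 5 falls of 21, near the 16.1% and 18.5% of all genes, with Cdyl, a chromodomain Y-like protein, up by 3.72 and the arginine methyltransferase gene Prmt5 and the deacetylase gene Sirt1 lower, at -2.95 and -2.76.

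Of the acrosome genes some were much higher in spermatids, some were not called and a few were lower. Of 27 tested, 12 rose, each by 4.07 or more, 3 fell and 12 were not called, and the median was 0.50. Spaca4, a sperm membrane protein of the acrosome, read 7.33, 5.47 and 7.45 in spermatocytes and 11.23, 11.94 and 11.92 in spermatids, a rise of 4.93 (SE 0.57, adjusted p = 6.6e-06 in limma). Spam1, the sperm hyaluronidase, rose by 4.88, Eqtn by 4.82 and Spaca7 by 4.75, and Izumo1, the sperm ligand of gamete fusion, by 4.43. Acr, for the protease acrosin, and the zona-binding genes Zpbp and Zpbp2 were at 0.50, 0.69 and 0.12, and a second probe of Zpbp fell, at -1.46. The 3 that fell act in vesicle traffic to the acrosome. They were Vps54, at -3.04, Gopc, at -1.80, and Golga1, at -1.46, of which Gopc was not called without background correction, at -0.67.

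Head and nuclear envelope genes exchanged members. Of 20 tested 7 rose and 3 fell. The LINC complex joins the nuclear envelope to the cytoskeleton, and its SUN proteins sit in the inner membrane. Sun5 rose by 4.83 (SE 0.52), from 6.81, 5.20 and 7.13 to 10.76, 11.44 and 11.40, Spag4 (also known as Sun4) rose by 4.34, and Sun3 by 1.83. Sun1 and Sun2, which move chromosomes in meiosis, were lower, at -1.74 and -1.99, Sun1 going from 10.10, 10.43 and 11.57 to 8.58, 8.79 and 8.87. The lamin gene Lmnb1 was not detected on any spermatid array and was at least 5.54-fold lower, while Lmnb2 rose by 3.03, but their second probes were at -0.48 and 0.02 and not called. Spag6 and Hook1, the latter a manchette protein, rose by 3.80 and 2.86, and Clip1 by 3.38 although 1 of its 3 probes fell.

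In the flagellum list 10 of 29 tested genes rose and 3 fell, with a median of 0.18. Odf3, of the outer dense fibre family, and the fibrous sheath genes Akap3 and Ropn1 rose by 4.46, 4.29 and 4.27, and Odf3 went from 8.48, 6.27 and 8.87 to 12.01, 12.52 and 12.52. Akap4, the main fibrous sheath protein, and Odf1 rose by 3.40 and 2.98. Septin12, described above, Iqcg and Dnah8 fell. The 16 members not called ran from -0.95, for the axonemal dynein gene Dnah17, to 0.82, for Odf2, and Ccdc39, at -0.67, fell on 3 of its 5 probes. The CatSper channel, the calcium channel of the sperm tail, had members on both sides. Its pore subunits Catsper1, Catsper3 and Catsper4 rose by 4.84, 4.78 and 4.84, with Catsper4 at 7.09, 5.37 and 7.19 in spermatocytes and 11.16, 11.53 and 11.59 in spermatids. The pore subunit gene Catsper2 was at 0.03. Catsperb, an auxiliary subunit, was not detected on any spermatid array and was at least 2.77-fold lower, but was not called without background correction or with an offset of 50. The auxiliary subunits Catsperd and Catsperg2 fell, with differences of -1.17 and -1.01. Catsperg2 lost its call in many alternatives. Among them were a fit of the 6 control arrays alone, at -0.987, and no background correction, at -0.94. The call was also lost without spermatid replicate 1, at -0.99, or spermatocyte replicate 3, at -0.76. Prkar1a, a regulatory subunit of protein kinase A, was at -3.51 on 1 probe, which fell, and was at 0.07 on the other. All 5 tested genes of the testis-specific serine kinase list rose, the most by 5.09 (Tssk4). The lowest, Tssk5, was not detected on any spermatocyte array, was at least 2.73-fold higher, and was not called without background correction, which left 4 of 5. None was lower at an unadjusted p under 0.05 in limma.

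**Figure D4:**
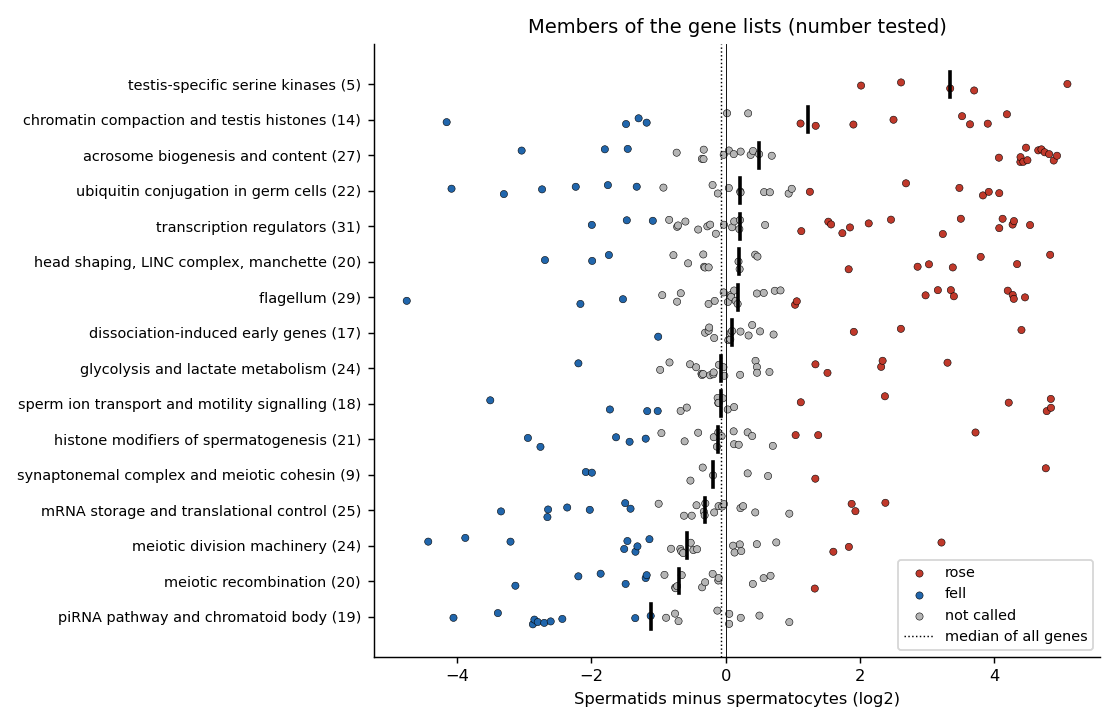
Spermatid minus spermatocyte difference (log2, x) of each tested member of 16 gene lists, ordered by their median (black bar) and coloured by call. The dotted line is the median of all genes, -0.08. The 5 kinase genes all lie to the right, the acrosome genes hold 12 rises of 4.07 or more beside 12 genes not called and 3 falls, and none of the 19 piRNA pathway genes rose.

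Meiotic genes fell only in part. Of 9 tested genes of the synaptonemal complex and meiotic cohesin, 2 fell and 2 rose, where 18.5% and 16.1% of all genes did. The rises were Rec8 and Syce2, of which Syce2, at 1.33, was not called under median scaling, without background correction or with an offset of 50, at 0.98, 0.70 and 0.98. Sycp2, of the axial elements, fell by 1.99 (SE 0.18), from 10.63, 10.56 and 10.54 to 8.67, 8.37 and 8.73, and Hormad2 fell by 2.08. Sycp1, of the transverse filaments, was at -0.19 (SE 0.22). Rec8, a meiotic cohesin subunit, went the other way, from 6.29, 5.27 and 6.75 to 10.33, 11.07 and 11.03, a rise of 4.77 (SE 0.41, adjusted p = 4.55e-07 in limma). It rests on 1 probe. Of 20 recombination genes 6 fell and 1 rose, with a median of -0.69. Mlh3, of the crossover endonuclease, fell by 3.13 on the probe named here and all 3 of its probes fell, and Meiob fell, at -2.19. Spata22 and Mnd1 were not detected on any spermatid array and were at least 3.17- and 2.24-fold lower, but neither was called without background correction. Tex11, which is X-linked, rose by 1.33, a call lost without background correction, at 0.47, and with an offset of 50, at 0.75.

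For the division machinery 8 of 24 fell and 3 rose. Cdk2 read 11.89, 12.10 and 12.15 in spermatocytes and 8.37, 7.29 and 7.33 in spermatids, a difference of -4.43 (SE 0.24, adjusted p = 3.27e-08 in limma), and all 4 of its probes fell. The cohesin protector gene Sgo2a and the spindle checkpoint gene Mad2l1 fell, with differences of -3.88 and -3.20. The Cdc25 phosphatases activate cyclin-dependent kinases. Cdc25c rose by 3.21, from 5.06, 5.10 and 5.42 to 8.05, 8.66 and 8.31, and Cdc25a rose by 1.83. Plk1 rose by 1.60.

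The piRNA list, of genes of the piRNA pathway and chromatoid body, had the lowest median of the 16 lists, -1.12. piRNAs are small RNAs bound by PIWI proteins that guard the germ line. Of 19 tested genes 10 fell and none rose (2 were higher at an unadjusted p under 0.05 in limma). Piwil1, which encodes a PIWI protein, read 13.56, 13.66 and 13.77 in spermatocytes and 10.71, 9.89 and 10.24 in spermatids, a difference of -3.39 (SE 0.21, adjusted p = 6.43e-08 in limma). The Tudor domain gene Tdrd5 fell by 4.05, from 10.31, 10.69 and 11.03 to 6.70, 6.25 and 6.63. Piwil2 and Mov10l1 fell, with differences of -2.87 and -2.85. Tdrd6, Ddx4 and Ddx25, of the same list, were not called, at -0.12, 0.05 and 0.05.

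Several families of translation, respiration and protein breakdown had more falls than rises. Of 71 mitochondrial ribosomal protein genes 32 fell and 2 rose, with a median of -0.94, and Mrpl27 fell by 3.60, from 8.57, 9.03 and 7.80 to 5.56, 4.84 and 4.63. Among respiratory chain and ATP synthase subunits 19 of 72 fell and 1 rose (median -0.61). The proteasome gave 12 falls and 1 rise of 37 (median -0.69). Psma8, its germ cell subunit, fell by 2.73, while Psmd10, an X-linked assembly factor, rose by 4.47, from 5.77, 4.57 and 5.98 to 9.74, 10.22 and 9.83. For cytosolic ribosomal protein genes the share that fell, 9 of 55, was no larger than the 18.5% of all genes that fell, while none rose and the median was -0.45 (none was higher at an unadjusted p under 0.05 in limma). Rpl10a was the farthest out, at 12.61, 12.50 and 12.06 in spermatocytes and 10.02, 8.22 and 8.56 in spermatids. Rab GTPase genes, of membrane traffic, had 16 falls and 2 rises of 55, and zinc finger genes named Zfp 60 falls and 29 rises of 240. These medians kept their sign under the other scalings.

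Solute carriers had more rises than falls, and kinesins were near balance. Of 225 solute carriers 42 rose, near the 16.1% of all genes, and 27 fell, below the 18.5% of all genes. Slc6a6, the taurine transporter, rose by 4.99 on 1 of its 2 probes, from 6.32, 5.04 and 7.41 to 10.95, 11.29 and 11.23, and its other probe was at 0.23. Of 32 kinesins 8 rose and 9 fell, with Kif2b, Kif21a and Kif17 up by 4.39, 3.23 and 2.93 and the mitotic motor Kif11 lower, at -2.54. Olfactory receptor genes had shares of calls below the 16.1% and 18.5% of all genes, with 10 rises and no fall among 303 tested (8 were lower at an unadjusted p under 0.05 in limma), and 13 were detected on all 3 spermatid arrays. Olfr701 read 4.80, 4.35 and 5.10 in spermatocytes and 8.09, 9.04 and 8.61 in spermatids, and all 3 of its probes rose.

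In glycolysis 5 of 24 tested genes rose and 1 fell, where 16.1% and 18.5% of all genes did. Gapdhs, the sperm form of glyceraldehyde-3-phosphate dehydrogenase, rose by 3.30 (SE 0.44), from 9.22, 7.34 and 9.49 to 12.08, 12.16 and 11.94. Hk1, Pkm and Aldoa rose by 2.34, 2.31 and 1.52, Eno3 fell by 2.19, and the germ cell lactate dehydrogenase gene Ldhc, near the top of the range, was at -0.02. Among genes of mRNA storage and translation 3 of 25 rose and 7 fell, beside the same shares of all genes. Dazl, an RNA-binding protein of germ cells, fell by 2.65, from 9.13, 8.67 and 8.53 to 6.66, 6.21 and 5.97. Its second probe was not called, at -0.14, and Elavl1 likewise had probes at -3.35 and 0.66. Cpeb2 rose by 2.38 on 1 probe and fell by 1.52 on the other. Ubiquitin pathway genes rose and fell in equal number, 6 each of 22. Marchf11, a ligase of early spermatids in the rat, fell from 8.78, 8.64 and 9.03 to 4.80, 4.94 and 4.48, and Klhl10 and Trim36 rose by 4.07 and 3.83. Over all genes with 2 or more tested probes, 81 of 4976 had 1 probe that rose and another that fell.

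Enzymatic release of cells can itself induce early response genes. Of 17 tested, 3 rose and 1 fell, and the share that rose was near the 16.1% of all genes. Klf4, a transcription factor that is also normal in spermatids, rose by 4.40, from 5.95, 5.17 and 5.38 to 10.13, 10.15 and 9.83, Dusp1 by 2.61 and Jund by 1.91, of which Jund was not called without background correction, at 0.72. Fos and Egr1 were at -0.31 and 0.04. Gadd45b was not detected on any spermatid array, was at least 1.67-fold lower, and its fitted difference of -1.01 lost its call in many alternatives. Among them were the mouse as a block, at -0.97, and leaving out spermatocyte replicate 1 or 2, at -0.93 and -0.90. Others were a fit of the 6 control arrays alone, at -0.999, and no background correction, at -0.31.

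Promoter sequence was set beside the calls. RefSeq (GRCm38.p6) gave a window from 250 bases before to 50 after the start site for 10820 of the 13441 genes (80.5%). Most mammalian promoters active in many tissues are rich in the dinucleotide CG, a target of DNA methylation. The median number of CG in the 300 bases was 11 for the 1765 genes that rose, 23 for the 2032 that fell and 18 for all tested. It was 5 for the 605 genes that rose 8-fold or more, with a middle range of 2 to 16, and 23 for the 183 that fell as much. X-linked genes that rose had a median of 9, and all X-linked genes 10. The 100 bases before the start site are shown for the first 3 of the largest rises and falls with a window, to let the difference be seen, with each CG in capitals.
Gm2888, rose, chr14:3029818-3029917, plus strand: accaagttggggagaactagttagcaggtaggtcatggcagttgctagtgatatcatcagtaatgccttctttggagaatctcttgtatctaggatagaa
4930415O20Rik, rose, chr15:98570904-98571003, plus strand: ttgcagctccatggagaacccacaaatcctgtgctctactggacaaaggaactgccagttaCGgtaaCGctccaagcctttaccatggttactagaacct
Tssk4, rose, chr14:55650084-55650183, plus strand: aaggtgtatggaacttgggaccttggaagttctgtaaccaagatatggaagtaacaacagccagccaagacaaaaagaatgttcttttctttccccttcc
Mgll, fell, chr6:88724312-88724411, plus strand: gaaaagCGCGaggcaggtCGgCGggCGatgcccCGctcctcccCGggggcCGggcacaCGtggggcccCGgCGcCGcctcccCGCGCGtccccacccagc
Chst1, fell, chr2:92601017-92601116, plus strand: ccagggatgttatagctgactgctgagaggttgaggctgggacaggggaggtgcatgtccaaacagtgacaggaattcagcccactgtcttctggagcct
Mark2, fell, chr19:7341861-7341960, minus strand: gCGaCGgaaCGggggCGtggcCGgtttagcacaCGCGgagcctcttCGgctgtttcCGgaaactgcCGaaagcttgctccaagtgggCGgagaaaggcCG
Gm2888 and Tssk4 had no CG in this stretch and 4930415O20Rik had 2, while Mgll had 15 and Mark2 12. Chst1 went against its class, with none here and 1 in the whole window.

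**Figure D5:**
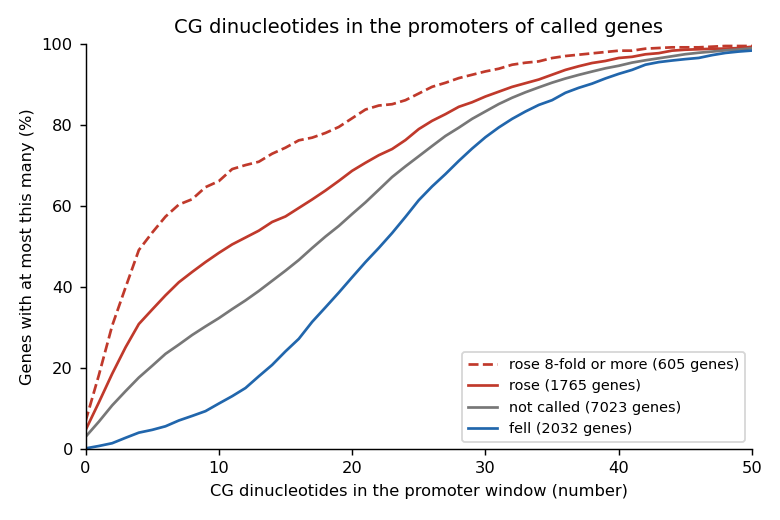
Percent of genes (y) with at most a given number of CG dinucleotides (x) in the 300-base promoter window, for genes that rose, rose 8-fold or more, fell, or were not called. The curve of the fallen genes runs lowest, with a median of 23, and that of the genes that rose 8-fold or more runs highest, with a median of 5.

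Short motifs were searched on both strands, with no regard to overlap between them. GTTGCCA, a part of the X-box to which RFX factors bind, was in 6.86% of promoters of genes that rose, 8.26% of those that rose 8-fold or more, 3.64% of those that fell and 4.51% of all tested. The cyclic AMP response element TGACGTCA, to which CREM binds, was in 3.06, 2.48, 3.69 and 2.91%, and TATAAA, of the TATA box, in 9.97, 11.9, 6.10 and 9.47%. CACGTG, the E-box, was in 7.93, 6.12, 11.9 and 9.33%, and CCAAT in 40.3, 40.0, 40.7 and 38.8%. The full X-box was in 11 of the 10820 promoters, 2 of them of genes that rose. A match is a description of the letters in the window and no measure of binding. The windows around GTTGCCA in the 4 strongest rises with a match before the start site and 30 bases of room are shown, with the motif in capitals.
Gm2888, chr14:3029746-3029775, plus strand: ttggaaggagagGTTGCCAaaggggatccc
Chn1, chr2:73775393-73775422, minus strand: gtgcgcgcgcccGTTGCCAtggtaacgcgc
Gm5800, chr14:51717339-51717368, minus strand: caataatgggaaGTTGCCAagaggtaaacc
Acsbg3, chr17:56875404-56875433, plus strand: accttgggtcatGTTGCCAtcgtggccctg
Chn1, which encodes the Rac regulator chimerin 1, read 5.77, 4.38 and 5.74 in spermatocytes and 10.29, 10.61 and 10.30 in spermatids, and Acsbg3, of an acyl-CoA synthetase family, went from 7.21, 5.76 and 7.69 to 11.38, 11.76 and 11.73. The promoter of Chn1 held 43 CG in its window, unlike the 2 of Gm2888, 1 of Gm5800 and 4 of Acsbg3.

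The same contrast was read in Baz1a-/- mice from 3 spermatid and 2 spermatocyte arrays, which share no sample with the controls. There 9052 of 25511 probes (35.5%) were called. Of the 8170 control calls 7166 (87.7%) were called in the same direction in mutants, which is 79.2% of the mutant calls, and 3 were called in the opposite one, Exosc8, Nek3 and a probe without a name (control differences of -1.23, -1.04 and -1.02), noted after their values were seen. Their own difference between genotypes did not pass, with adjusted p from 0.0993 to 0.12 in limma. The difference between the contrasts was tested directly as an interaction, and passed for 25 probes (0.098%). For 21 of the 25 the change was higher in mutants than in controls. Of the 25, 6 were among the control calls, and the 3 of these with a gene name were lower in mutants. Chac1, an enzyme of glutathione breakdown, was not detected in control spermatocytes (4.18, 4.52 and 4.41) and read 7.52, 7.92 and 7.73 in control spermatids, at least 7.53-fold higher. In mutants its difference was 0.30 (SE 0.25). Neurl1a rose in controls by 1.72 and was at -0.23 in mutants. Rufy1 was not detected on any control spermatocyte array and was at least 3.31-fold higher in control spermatids, and its difference in mutants was 0.32. Neither control call held without background correction. The 3 other control calls among the 25 were probes without a gene name here.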

How the data were processed

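RNA of sorted cells was hybridized to Illumina MouseWG-6 v2.0 arrays, with a separate array for every mouse and cell type. The authors deposited linear bead signal intensity, not background-corrected, with a detection p-value per probe and array (GenomeStudio 2011.1, per the labels), and log2 values after normexp and quantile normalization (limma 3.12.1). Here signals were normexp-corrected (offset 16, negative controls inferred from detection p-values) and quantile normalized over 12 arrays (limma 3.58.1, R 4.3.3). The result was within 0.0244 of the deposited log2 values. A 4-group model of 11 arrays with array weights and moderated variances gave each contrast. The number of arrays limits the precision. The fit and its calls were tested on simulated data. Of tested probes, 4524 had no single gene name. Genes enter lists by their brightest probe. By rule, named genes were the 12 largest rises and falls with separate groups, the 4 largest changes per list, the 6 rises and 4 falls on X and Y, all retrogene pair members, and the 6 brightest genes of 1 cell type alone. Further list members were named after their values were seen. Members and lists were chosen with earlier results of these data known.

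Same-numbered arrays come from the same mouse, by the animal number in the sample descriptions. Deviations from group means correlated at 0.23, 0.0011 and 0.186 within mice and at -0.224 to 0.0749 between mice. The p-values of the main fit rest on the spread between arrays within groups, pooled over the 11 fitted control and mutant arrays. The censored mutant spermatocyte array was not among them, so not every group held 3 mice. Spermatid and spermatocyte arrays of the same mouse were treated as independent in that fit. Its p-values therefore do not measure the spread of the change within mice.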

Additional observations from a re-analysis of the deposited data

Results flagged for a closer look

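For 3 named genes called in controls, the change from spermatocytes to spermatids differed between mutant and control mice by a test of that difference in limma, over 5 mutant and 6 control arrays. The change in mutants minus that in controls was -3.12 for Chac1 (adjusted p = 0.00474), -1.95 for Neurl1a (adjusted p = 0.0488) and -1.80 for Rufy1 (adjusted p = 0.0488), all on the log2 scale. Most probes went the other way, as 21 of the 25 that passed had the higher change in mutants.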

How the results depend on the processing

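The count of probes called between control cell types was 8170, against 4418 without background correction and 4730 when limma tested for a change beyond 2-fold. The 204 X-linked rises became 130 without background correction. With the mouse as a replicate block, the counts of calls, X-linked rises and differences between genotypes were 7997, 204 and 29. The pairing ended the call of 1 named gene, Gadd45b, and added 1 rise on the piRNA list. Leaving out 1 control array gave 7827 to 8491 calls and 202 to 212 X-linked rises. The count of probes whose change differed between genotypes was the least stable. From 25 it went to 39 with the mouse as a random block, 43 without background correction, 38 with an offset of 50, 9 at the stricter detection limit of 0.01, 6 where a probe had to be detected throughout 1 control group, 68 at a fold of 1.5 and adjusted p under 0.1, and 0 in limma's test beyond 2-fold, where 118 probes had an unadjusted p under 0.05. Leaving out 1 control array gave 1 to 19. The cause was not tested. Of 205 named genes that were called, 37 lost the call under at least 1 of 19 alternatives and none turned direction, and median scaling left the sign of every list median as it was. Low signals limit the folds of genes near background, and signals near the top limit those of Prm1 and Ldhc.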
